A study of Mus musculus with 14 samples.

Results

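Branched-chain amino acid (BCAA) catabolism was described in pancreatic islets through 10 genes, out of 18820 genes measured on the array. The genes are Bcat1, Bcat2, Bckdha, Bckdhb, Dbt, Bckdk, Ppm1k, Ivd, Mccc1 and Mccc2. They were taken as a pathway around Bcat1, which was chosen by its measured signal in these arrays: its values in DKO islets at 7 months were known to exceed those in WT. The other 9 were selected on pathway membership, with earlier results of these data known. Each of the 10 genes had exactly 1 probe set (the group of probes summarised to 1 value) that carried its symbol alone, and all 10 were measured. Islets came from 14 mice, each sample from a separate animal as the labels word it. WT at 5 weeks (4 arrays) and WT at 7 months (4 arrays) were wild-type C57BL/6 mice. DKO at 5 weeks (2 arrays) and DKO at 7 months (4 arrays) were Tlr2/Tlr4 double knockout mice on the C57BL/6 background, which lack Toll-like receptors for bacterial lipopeptides and lipopolysaccharide. All 4 groups, controls included, ate a high-fat diet with 60% fat from 6 weeks of age, and the named times are times on that diet. No group on a standard diet was analysed here, and the later mice were also older, so diet time and age cannot be told apart. The labels describe the knockout without a driver or a cell type, so it was not restricted to islet cells by them, and they do not say whether WT and DKO mice were littermates.

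Leucine, isoleucine and valine are first transaminated to branched-chain keto acids, a reversible step that passes the amino group to 2-oxoglutarate and makes glutamate. The keto acids are then oxidised in mitochondria by the branched-chain keto acid dehydrogenase complex, the committed step, which a kinase turns off and a phosphatase turns on. Leucine is a fuel that triggers insulin secretion from beta cells, both through its own catabolism and by activating glutamate dehydrogenase. It is also a signal to the growth kinase mTORC1.

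Values are log2 signals, so a difference of 1 is a doubling of the signal. Array medians lay between 3.89 and 3.98. Islet markers were bright on all 14 arrays, with Ins2 at 11.76 to 11.99, Pdx1 at 8.30 to 8.67 and Gcg at 11.91 to 13.01. Tlr2, which checks the genotype labels, was lower in every DKO array than in every WT array, and fell by 1.66 ± 0.12 (SE) at 5 weeks and by 1.06 ± 0.10 at 7 months (limma, adjusted p = 9.71e-06 and 1.61e-05). Tlr4 was dim throughout and did not check the labels, with DKO-minus-WT differences of 0.35 ± 0.20 and 0.31 ± 0.16 (adjusted p = 0.506 and 0.331); where its probes lie relative to the deletion was not analysed here.

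Bcat1 and Bckdhb are the members whose values set the groups furthest apart, so their promoter windows are shown. RefSeq windows on build GRCm38.p6, 250 bases before to 50 after an annotated start, were held for 9 of the 10 members (12 windows). Bcat1 has a window on the minus strand at chr6:145076108-145076407 (41.0% GC) and another, for a start further into the gene, at chr6:145048763-145049062 (58.7% GC). The first Bckdhb window lies on the plus strand at chr9:83924887-83925186 (65.0% GC). Sequences run 5′ to 3′ along the gene's strand, and capitals mark motif matches on either strand.

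Bcat1 window 1: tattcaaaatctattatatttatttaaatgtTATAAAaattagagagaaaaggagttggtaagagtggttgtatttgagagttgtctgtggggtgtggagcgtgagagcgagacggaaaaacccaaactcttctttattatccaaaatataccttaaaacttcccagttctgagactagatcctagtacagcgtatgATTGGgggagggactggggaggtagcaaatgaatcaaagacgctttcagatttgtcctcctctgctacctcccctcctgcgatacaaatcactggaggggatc

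Bcat1 window 2: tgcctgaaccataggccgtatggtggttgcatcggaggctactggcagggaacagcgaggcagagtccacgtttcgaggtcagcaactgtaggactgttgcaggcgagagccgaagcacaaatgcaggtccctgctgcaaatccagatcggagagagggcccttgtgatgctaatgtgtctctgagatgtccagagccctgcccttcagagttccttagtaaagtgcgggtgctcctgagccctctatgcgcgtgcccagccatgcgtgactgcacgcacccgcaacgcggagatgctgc

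Bckdhb window 1: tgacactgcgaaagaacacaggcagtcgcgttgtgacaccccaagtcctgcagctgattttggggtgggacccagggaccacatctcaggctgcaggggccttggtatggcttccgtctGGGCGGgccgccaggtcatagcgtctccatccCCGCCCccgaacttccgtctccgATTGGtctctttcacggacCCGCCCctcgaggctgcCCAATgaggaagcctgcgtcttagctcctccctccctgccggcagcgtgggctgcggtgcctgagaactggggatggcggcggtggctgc

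Counted from 1 at the printed 5′ end, the first Bcat1 window holds TATAAA at bases 32 to 37 and CCAAT on the opposite strand at 198 to 202, and the second holds no match. The first Bckdhb window holds GGGCGG at bases 120 to 125 and, on the opposite strand, at 152 to 157 and 194 to 199. It also holds CCAAT at 211 to 215 and, on the opposite strand, at 175 to 179. Of the 6 motifs searched on both strands, CCAAT was in 8 of the 12 members' windows, against 37.4% of all 32851 windows. GGGCGG was in 3 of 12 (35.7% of all), TATAAA in 2 (13.6%), the E-box CACGTG in 1 (7.15%) and the cyclic AMP response core TGACGT in 1 (7.51%). The amino acid response composite TGATGNAAT was in 0 of 12 (0.965% of all windows). In the Mccc2 window a CCAAT match and one on the opposite strand overlap. These matches describe letters in these windows, and binding there was not measured.

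Bcat1, the cytosolic transaminase of the pathway, had its highest values in DKO islets at 7 months. On the 4 arrays of WT at 5 weeks it read 3.08, 3.02, 3.07 and 2.33, and on the 2 of DKO at 5 weeks 3.37 and 3.33. On the 4 arrays of WT at 7 months it read 3.86, 2.99, 3.20 and 3.19, and on the 4 of DKO at 7 months 5.72, 4.59, 6.22 and 5.85. The lowest DKO array at 7 months lay above every array of the other groups. By group mean the order was WT at 5 weeks (2.87 ± 0.37, SD, n = 4), WT at 7 months (3.31 ± 0.38, n = 4), DKO at 5 weeks (3.35 ± 0.02, n = 2) and DKO at 7 months (5.60 ± 0.70, n = 4). The ranges of WT at 5 weeks and at 7 months overlap, and both DKO values at 5 weeks lie inside the range of WT at 7 months.

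At 7 months the Bcat1 signal was 2.29 ± 0.29 (SE) higher in DKO than in WT on the log2 scale, 4.88-fold. It was 2.24 ± 0.35 higher in DKO at 7 months than in DKO at 5 weeks, 4.74-fold, against 0.43 ± 0.29 in WT. The time difference in DKO thus exceeded that in WT by 1.81 ± 0.46. These values share the arrays for which the gene was chosen and are given as a description, with no test. In the 10 arrays outside DKO at 7 months, Bcat1 was dimmer than the array's own median, where signals can be near background. The table holds no background flag, so the folds are not exact. DKO at 7 months replicate 2 had the lowest Bcat1 value of its group, and without it the 7-month difference was 2.62.

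The mean difference between genotypes at 5 weeks comes from other arrays, and it was tested. The fit pools the spread over all groups, so the SE, interval and adjusted p also draw on the arrays at 7 months. There the SD of Bcat1 was 0.70 in DKO and 0.38 in WT, against 0.02 and 0.37 at 5 weeks. The test at 5 weeks is therefore not independent of the arrays by which Bcat1 was chosen. Bcat1 was 0.48 ± 0.35 (SE) higher in DKO, with a 95% interval from -0.28 to 1.23, and did not pass (limma, adjusted p = 0.669, 0.407 to 0.877 over the alternative settings). The 2 DKO values lay above all 4 WT values, as groups did not overlap for 21.6% of all genes in that comparison.

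Bcat2, the mitochondrial transaminase, did not pass the test in any of the 5 comparisons. Its 4 values in DKO at 7 months were 6.39, 5.91, 6.13 and 6.11, against 6.05, 5.48, 5.85 and 5.86 in WT. The ranges overlap, and the difference was 0.32 ± 0.16 with an interval from -0.02 to 0.67 (limma, adjusted p = 0.312). At 5 weeks DKO read 5.67 and 6.34, the second above all WT values (5.31 to 5.87), with a difference of 0.42 ± 0.20 (adjusted p = 0.425). That Bcat2 difference was 0.08 without DKO at 5 weeks replicate 2 and 0.75 without replicate 1. The genotype difference of Bcat2 changed by -0.09 ± 0.26 between the times, and its test did not pass (adjusted p = 0.945).

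**Figure D1:**
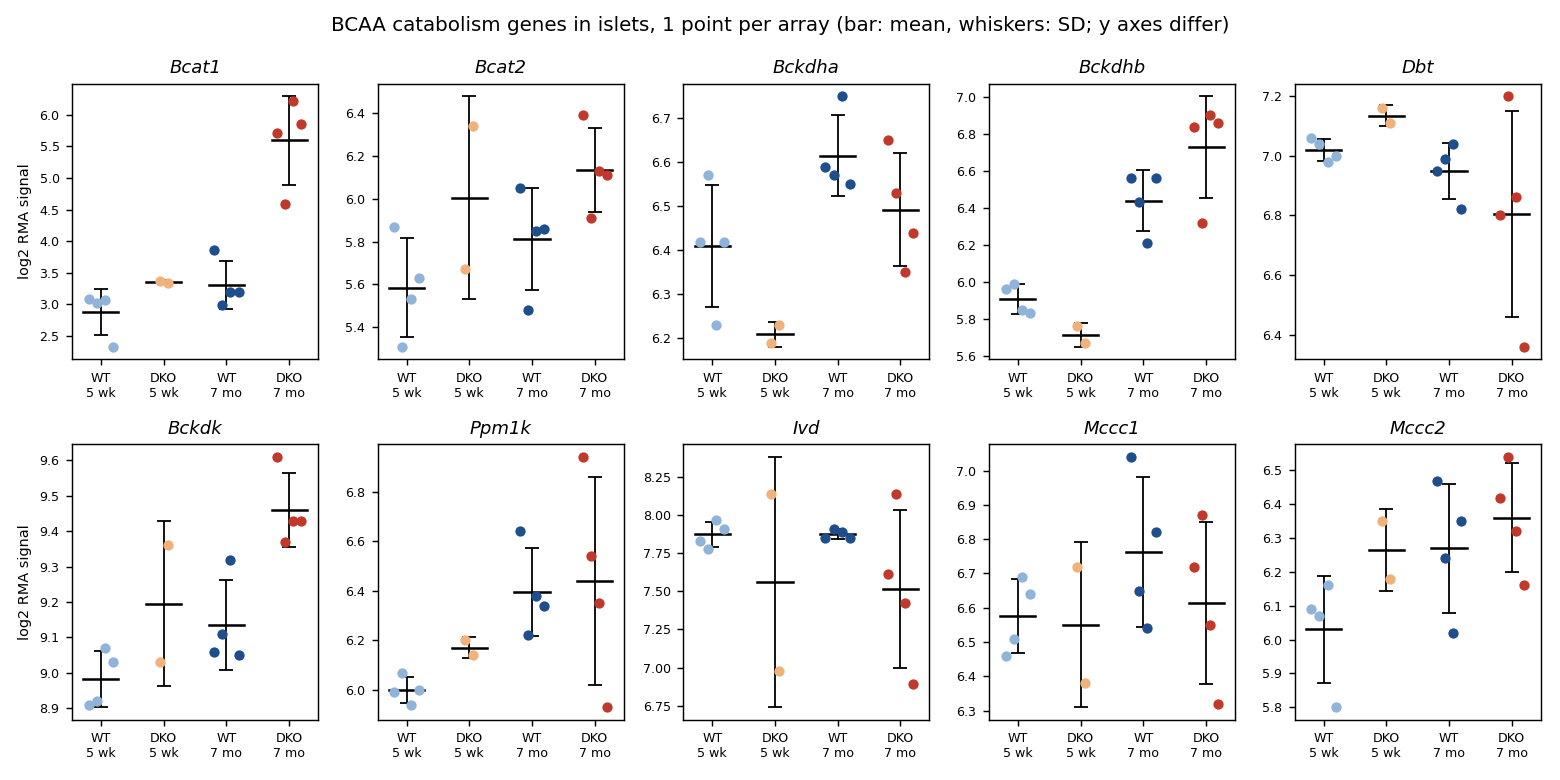
Log2 RMA signal (y axis, scaled per gene) of the 10 genes in the 4 groups (x axis), 1 point per array with the group mean and SD. Bcat1 in DKO at 7 months runs from 4.59 to 6.22, above all other arrays, whereas Bckdhb is higher at 7 months in both genotypes.

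The array measures islet tissue in bulk, so fewer cells of a type and less RNA per cell cannot be told apart, and values of other cell types' markers are given beside these results. At 7 months the mean log2 signal of 11 stellate cell and fibroblast markers ran from 5.71 to 6.35 in DKO and from 4.99 to 5.20 in WT. Of these markers 7 of 11 passed the test as higher in DKO, where 4.71% of all genes passed in either direction, and none was below the lowest array median on all arrays. The mean of 12 macrophage markers ran from 4.91 to 5.41 in DKO against 4.75 to 4.85 in WT. There 4 of 12 passed as higher, and 4 of the 12 lay below the lowest array median on all arrays. The 10 measured lymphocyte markers ran from 2.58 to 4.19 in DKO, the highest value being that of replicate 4, against 2.44 to 2.77 in WT, and 0 of 10 passed (0 at an unadjusted p under 0.05). All 3 alpha cell markers, 2 of 3 delta cell markers and all 3 PP and epsilon cell markers passed as lower in DKO at 7 months. The remaining delta cell marker was also lower but did not pass. Of 9 endothelial markers 2 passed as higher and 1 as lower (6 at an unadjusted p under 0.05). Their mean ran from 7.44 to 7.61 in DKO and from 7.24 to 7.33 in WT. Over all 18820 genes, 3456 had an unadjusted p under 0.05 between genotypes at 7 months. The mean of 9 beta cell markers lay between 10.55 and 10.85 in DKO and 10.77 and 10.82 in WT, and 0 of 9 passed (3 at an unadjusted p under 0.05). With the stellate cell mean in the model, the Bcat1 difference at 7 months was 1.74 ± 0.64, and with the macrophage mean 2.31 ± 0.43. Neither mean overlapped between the genotypes at that time. These fits therefore cannot tell the cell types apart from genotype, and no conclusion is drawn from them. The mean of 21 acinar markers ran from 8.07 to 8.55 in DKO and 5.66 to 7.82 in WT at 5 weeks, without overlap. There 0 of 21 passed (4 unadjusted). Of all 18820 genes 0.994% passed, and 2282 had an unadjusted p under 0.05. At 7 months all 4 DKO arrays (7.19 to 7.74) lay inside the WT range (4.83 to 7.87), and 1 of 21 passed, as higher. With the acinar score in the model the Bcat1 difference at 7 months was 2.43. The other members were fitted with these covariates in the same way and with the same limits. The part of these cell types in their values was not otherwise tested.

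Among the 9 members other than Bcat1, only Bckdhb passed a test, and it rose with time in both genotypes. No other of the 9 passed in any comparison. A single gene is too few to set time against genotype for the 9, so counts are given beside the shares of all genes. Between genotypes, 0 of 9 passed at 5 weeks and 0 of 9 at 7 months (0 and 2 at an unadjusted p under 0.05), where 0.994% and 4.71% of all genes passed. With time, 1 of 9 passed in WT and 1 of 9 in DKO (3 and 3 unadjusted), where 2.37% and 7.57% of all genes passed. For the interaction, the difference between genotypes in the change with time, 0 of 9 passed (1 unadjusted) against 0.0903% of all genes. Of all 18820 genes, 2282 at 5 weeks and 3456 at 7 months had an unadjusted p under 0.05 between genotypes. With time there were 2753 in WT and 4040 in DKO, and for the interaction 1909. The unadjusted counts of the lists below stand against the same numbers. Groups did not overlap for 5 of 9 at 5 weeks, 1 of 9 at 7 months, 2 of 9 with time in WT and 3 of 9 with time in DKO. The shares of all genes were 21.6%, 10.6%, 11.6% and 26.7%. The median difference of the 9 was 0.11 at 5 weeks and 0.05 at 7 months (0.01 and 0.01 over all genes), 0.20 with time in WT and 0.13 in DKO (0.03 and 0.02), and -0.09 for the interaction (0.00).

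Bckdhb and Bckdha encode the beta and alpha subunits of the decarboxylase of the dehydrogenase complex. Bckdhb read 5.96, 5.99, 5.85 and 5.83 in WT at 5 weeks and 6.56, 6.43, 6.21 and 6.56 in WT at 7 months. In DKO it read 5.76 and 5.67 at 5 weeks and 6.84, 6.32, 6.90 and 6.86 at 7 months. In each genotype every array at 7 months lay above every array at 5 weeks. Some marker means also moved with time. That of alpha cells ran from 8.04 to 8.25 in WT and 7.72 to 8.05 in DKO at 5 weeks. At 7 months it ran from 7.33 to 7.52 and from 6.41 to 6.63. The beta cell mean overlapped between the times in both genotypes, in DKO only through replicate 2 at 7 months (10.85). The endothelial mean was higher at 7 months without overlap, at 6.94 to 7.16 and then 7.24 to 7.33 in WT. In DKO it ran from 6.91 to 7.11 and then from 7.44 to 7.61. Delta cell means and PP and epsilon cell means fell without overlap in both genotypes. The stellate cell mean fell in WT and rose in DKO. Apart from the acinar score, no cell type mean was in a model of time. The part of other cell types in the rise of Bckdhb was not tested.

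Bckdhb rose by 0.53 ± 0.12 (SE) in WT, 1.45-fold (limma, adjusted p = 0.0334), and by 1.01 ± 0.15 in DKO, 2.02-fold (adjusted p = 0.001). The rise in DKO passed in 23 of 23 alternative settings (4.54e-05 to 0.0335). The rise in WT passed in 13 of 23 (0.00519 to 0.114), and was lost without each WT array except replicate 3 of WT at 7 months (adjusted p = 0.068 to 0.114 in those 7 settings). The rise was larger in DKO by 0.48 ± 0.19, which did not pass (adjusted p = 0.404). At 7 months Bckdhb was 0.29 ± 0.12 higher in DKO (adjusted p = 0.22), and without replicate 2 of that group 0.43 higher (adjusted p = 0.0123). Its 5-week difference was -0.19 ± 0.15 (adjusted p = 0.688).

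Bckdha, the subunit that the kinase phosphorylates, did not pass in any comparison. It read 6.19 and 6.23 in DKO at 5 weeks and 6.65, 6.53, 6.35 and 6.44 in DKO at 7 months, without overlap, a difference of 0.28 ± 0.11 (limma, adjusted p = 0.149). In WT it ran from 6.23 to 6.57 at 5 weeks and from 6.55 to 6.75 at 7 months, a difference of 0.20 ± 0.09 (adjusted p = 0.317). Between genotypes it differed by -0.20 ± 0.11 at 5 weeks and -0.12 ± 0.09 at 7 months (adjusted p = 0.507 and 0.526).

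Dbt, the transacylase that forms the core of the complex, ran from 6.98 to 7.06 in WT at 5 weeks and from 6.82 to 7.04 in WT at 7 months. In DKO it read 7.16 and 7.11 at 5 weeks and 6.80, 7.20, 6.86 and 6.36 at 7 months, so that 3 of the 4 later arrays lay below both earlier ones and replicate 2 above them. The time difference in DKO was -0.33 ± 0.16 (limma, adjusted p = 0.249), and without replicate 2 it was -0.46 and passed (adjusted p = 0.0385). The genotype differences were 0.11 ± 0.16 and -0.15 ± 0.13 at the earlier and later time (adjusted p = 0.865 and 0.605).

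Bckdk, the kinase that inactivates the complex, read 9.61, 9.37, 9.43 and 9.43 in DKO at 7 months and 9.06, 9.11, 9.32 and 9.05 in WT. The groups do not overlap, the only such case among the 9 at that time. The difference was 0.32 ± 0.09, with an interval from 0.12 to 0.52, and did not pass (limma, adjusted p = 0.0666). It passed in 5 of 23 alternative settings, with adjusted p up to 0.191 in the others. Those 5 were a trended prior (0.0257), leaving out dim genes (0.0373), centring arrays (0.0402), and leaving out WT at 7 months replicate 3 (0.0464) or DKO at 7 months replicate 2 (0.0461). At 5 weeks DKO read 9.03 and 9.36 against 8.91 to 9.07 in WT, a difference of 0.21 ± 0.12 (adjusted p = 0.50). That Bckdk difference was 0.05 without DKO at 5 weeks replicate 2 and 0.37 without replicate 1.

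Ppm1k, the mitochondrial phosphatase that reactivates the complex, ran from 5.94 to 6.07 in WT at 5 weeks and from 6.22 to 6.64 in WT at 7 months, without overlap. The difference was 0.40 ± 0.16 (limma, adjusted p = 0.263). In DKO it read 6.20 and 6.14 at 5 weeks and 6.94, 6.54, 6.35 and 5.93 at 7 months, the last below both earlier values. Its genotype differences were 0.17 ± 0.20 and 0.05 ± 0.16 (adjusted p = 0.814 and 0.917).

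Ivd, the isovaleryl-CoA dehydrogenase of leucine breakdown, varied between DKO mice and hardly between WT mice. WT arrays lay between 7.78 and 7.97 at 5 weeks and between 7.85 and 7.91 at 7 months. DKO arrays read 8.14 and 6.98 at 5 weeks and 7.61, 8.14, 7.42 and 6.89 at 7 months. Each DKO group thus has arrays above and below all WT arrays of its time. Differences of -0.31 ± 0.29 at 5 weeks and -0.36 ± 0.23 at 7 months did not pass (limma, adjusted p = 0.75 and 0.459).

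Mccc1 and Mccc2 encode the biotin-bearing and the carboxyltransferase subunit of methylcrotonyl-CoA carboxylase, the next mitochondrial carboxylation on the leucine branch. Mccc1 read 6.72, 6.87, 6.55 and 6.32 in DKO at 7 months and 7.04, 6.65, 6.54 and 6.82 in WT. These ranges overlap, with a difference of -0.14 ± 0.13 (limma, adjusted p = 0.621). At 5 weeks it read 6.72 and 6.38 in DKO against 6.46 to 6.69 in WT, a difference of -0.03 ± 0.16 (adjusted p = 0.972). Mccc2 ran from 6.16 to 6.54 in DKO and from 6.02 to 6.47 in WT at 7 months, a difference of 0.09 ± 0.11 (adjusted p = 0.74). At 5 weeks Mccc2 read 6.35 and 6.18 in DKO, above all WT values (5.80 to 6.16), a difference of 0.23 ± 0.14 (adjusted p = 0.558). Its time differences were 0.24 ± 0.11 in WT and 0.10 ± 0.14 in DKO (adjusted p = 0.352 and 0.746).

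**Figure D2:**
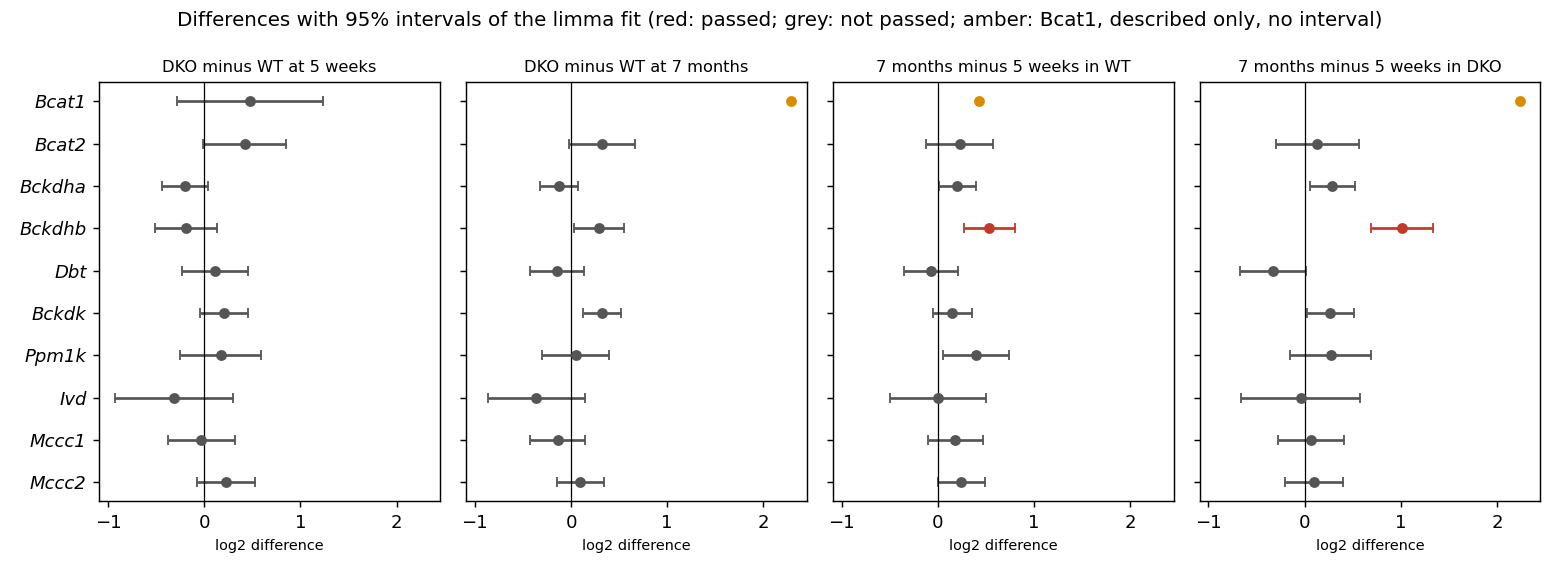
Log2 differences of the 10 genes (y axis) in the comparisons other than the interaction (panels), each with the 95% interval of the limma fit. Bckdhb with time, at 0.53 in WT and 1.01 in DKO, is marked as passed in 2 panels, Bckdk at 7 months (0.32) is not, and Bcat1 is shown without an interval where it was only described.

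The 4 DKO mice at 7 months were not alike across the pathway. Replicate 2 was the lowest of its group for Bcat1, Bcat2, Bckdhb and Bckdk and the highest for Dbt, Ivd, Mccc1 and Mccc2. Replicate 4 was the lowest for Dbt, Ppm1k, Ivd, Mccc1 and Mccc2. The median range between arrays of a group was 0.57 over the 10 genes in DKO at 7 months (0.36 over all genes). It was 0.39 in WT at 7 months (0.29) and 0.21 in WT at 5 weeks (0.30). Replicate 2 had the highest beta cell marker mean of its group (10.85, against 10.58, 10.55 and 10.56 in replicates 1, 3 and 4). Replicate 4 had the highest stellate cell mean (6.35), macrophage mean (5.41) and lymphocyte mean (4.19). The part of these cell types in the spread was not tested. In WT at 7 months as well, replicate 1 was the highest for 5 of the 10 genes and replicate 4 the lowest for 4.

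The genes whose arrays followed Bcat1 most closely were Rapgef5, Vnn1, C1qtnf1, Cthrc1 and Vgf. Likeness was the root mean square difference between log2 values centred on each gene's mean, over 14 arrays, and came to 0.41, 0.47, 0.49, 0.50 and 0.53 in that order. A flat line would differ from Bcat1 by 1.19. Rapgef5, a guanine nucleotide exchange factor for Rap proteins, averaged 6.44 ± 0.48 (SD, n = 4) in DKO at 7 months and 4.97 ± 0.18 (n = 4) in WT. Vnn1, a pantetheinase, averaged 5.07 ± 0.27 and 3.01 ± 0.17. C1qtnf1, a secreted protein of the C1q and TNF family, averaged 5.55 ± 0.64 and 3.93 ± 0.18.

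Cthrc1, a secreted collagen triple helix repeat protein, averaged 6.81 ± 1.00 in DKO at 7 months and 5.50 ± 0.19 in WT. Its replicate 2 read 5.32, inside the WT range, and the other 3 arrays read 7.20 to 7.38. Vgf, a neuroendocrine secreted peptide precursor, averaged 5.72 ± 0.41 and 4.30 ± 0.34. In each of the 5 genes, as in Bcat1, replicate 2 was the lowest DKO array at 7 months. No member of the pathway was among them: Bckdhb came closest, at 0.90 and place 265 of 18819 genes, and Ivd was farthest, at 1.41 and place 18144. These genes were selected for following Bcat1, so their levels carry no test.

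**Figure D3:**
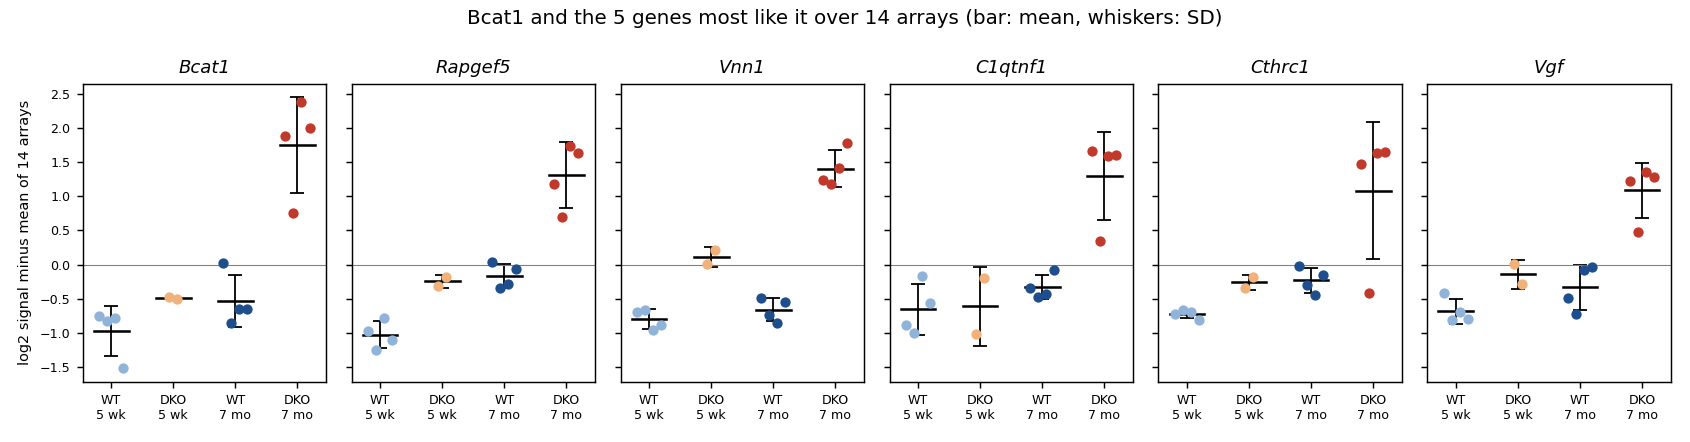
Log2 signal minus the gene's mean over 14 arrays (y axis) for Bcat1 and the 5 genes most like it, by group (x axis), 1 point per array with mean and SD. In every panel the DKO arrays at 7 months are highest on average, and in Cthrc1 replicate 2 (5.32 before centring) sits among the WT arrays.

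Connected steps were described through lists of genes. In the list of downstream BCAA catabolism (20 of 21 genes measured), 0 passed between genotypes at 5 weeks (2 at an unadjusted p under 0.05) and 1 at 7 months. Over all genes 0.994% and 4.71% passed, the latter share being near 1 of 20. The gene that passed at 7 months was Acad8, the isobutyryl-CoA dehydrogenase of valine breakdown, which rose by 0.50 ± 0.12 (limma, adjusted p = 0.0225). It ran from 6.93 to 7.29 in DKO and from 6.52 to 6.70 in WT. Its call was lost without replicates 1, 3 or 4 of WT or replicates 1 or 4 of DKO at 7 months (adjusted p = 0.0512 to 0.071) and with the acinar score (0.104). At 5 weeks, where none passed, the smallest p was that of Auh, the methylglutaconyl-CoA hydratase of leucine breakdown, at -0.41 ± 0.12 (adjusted p = 0.153). It was -0.18 without DKO at 5 weeks replicate 2 and -0.64 without replicate 1.

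With time in DKO, 4 of the 20 downstream genes passed, all higher, where 7.57% of all genes passed, 64.3% of them higher (76.1% with centred arrays). Auh rose by 0.83 ± 0.12 (limma, adjusted p = 0.00105), Acad8 by 0.57 ± 0.14 (0.0247), the epimerase Mcee by 0.46 ± 0.12 (0.0268), and Hibch, a hydrolase of valine breakdown, by 0.46 ± 0.13 (0.0484). In WT 1 of 20 passed, Hibch with 0.44 ± 0.11 (adjusted p = 0.0478), where 2.37% of all genes passed. When only the DKO arrays were fitted, the calls of Auh (adjusted p = 0.0506), Acad8 (0.142), Mcee (0.16) and Hibch (0.104) in DKO were lost. That of Auh held without any single array. Those of Acad8, Mcee and Hibch in DKO were lost without DKO at 5 weeks replicate 2 (adjusted p = 0.247, 0.137 and 0.186), in all without 2, 4 and 11 of the 14 arrays singly, and that of Hibch in WT without 12 of the 14 arrays singly. The list's median was 0.15 in DKO and 0.12 in WT (0.02 and 0.03 over all genes). For the interaction 0 of 20 passed (2 unadjusted), where 0.0903% of all genes passed.

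Of 9 measured BCAA transporters (10 named), 0 passed in any of the 5 comparisons, with 3 at an unadjusted p under 0.05 at 5 weeks and 1 at 7 months. Over all genes, 0.994% and 4.71% passed between genotypes, 2.37% and 7.57% with time in WT and DKO, and 0.0903% for the interaction. Slc3a2, the heavy chain of the leucine exchanger, was 0.37 ± 0.11 higher in DKO at 7 months (limma, adjusted p = 0.0779). It passed in 3 of 23 settings: with a trended prior (0.0309), without dim genes (0.0467) and without replicate 4 of that group (0.45, adjusted p = 0.0301). Its light chain Slc7a5 was 0.47 ± 0.18 higher at 5 weeks (adjusted p = 0.289), and the transporter Slc43a2 differed by -0.40 ± 0.14 (adjusted p = 0.231), and by -0.23 without DKO at 5 weeks replicate 2. The list's median was 0.20 at 5 weeks and 0.16 at 7 months. Of 10 measured glutamate and aminotransferase partners (12 named), 0 passed between genotypes at either time (0 and 2 unadjusted). The shares of all genes were 0.994% and 4.71%. Gpt2, the mitochondrial alanine transaminase, differed by 0.37 ± 0.18 and 0.36 ± 0.15 (adjusted p = 0.447 and 0.211). With time in WT 1 of the 10 passed, where 2.37% of all genes passed. It was Got1, the cytosolic aspartate transaminase, which rose by 0.37 ± 0.08 (adjusted p = 0.0209). That call was lost without WT at 5 weeks replicates 2 or 4 or WT at 7 months replicate 1 (adjusted p = 0.0557 to 0.0791).

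Genes of the amino acid response and of serine synthesis were higher in DKO in part of the list (15 of 16 measured). At 5 weeks 1 of 15 passed, where 0.994% of all genes passed. It was Psat1, the transaminase of serine synthesis that uses glutamate. It read 6.03 and 6.48 in DKO against 5.16 to 5.33 in WT and rose by 1.00 ± 0.17, 2.00-fold (limma, adjusted p = 0.0119), a call lost without DKO at 5 weeks replicate 2 (0.77, adjusted p = 0.0931). At 7 months Psat1 was 0.72 ± 0.14 higher (adjusted p = 0.00753), running from 5.49 to 6.23 in DKO and from 5.09 to 5.29 in WT. This rise at 7 months passed in 23 of 23 alternative settings.

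Phgdh, the first enzyme of serine synthesis, was 0.82 ± 0.11 higher in DKO at 7 months, 1.76-fold (limma, adjusted p = 0.0007), and passed in 23 of 23 settings. It ran from 7.21 to 7.68 in DKO and from 6.57 to 6.76 in WT. At 5 weeks its difference was 0.60 ± 0.14 (adjusted p = 0.0539, 0.017 to 0.227 over the settings, 8 of 23 past the threshold). Myc, a transcription factor known to drive growth and amino acid metabolism genes, fell by 1.02 ± 0.23 at 7 months (adjusted p = 0.0184), and the call was lost without WT at 7 months replicate 2 (0.0607) or DKO at 7 months replicate 1 (0.0532), and when only the arrays compared were fitted (0.0531). Thus 2 of 15 rose and 1 fell at 7 months, where 4.71% of all genes passed. The list's median was 0.42 at 5 weeks and 0.26 at 7 months (0.01 and 0.01 over all genes). With time 0 of 15 passed in either genotype (1 unadjusted in WT, 0 in DKO), where 2.37% and 7.57% of all genes passed.

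Of 17 measured genes of leucine sensing and mTORC1 (19 named), 0 passed between genotypes at either time (2 and 3 unadjusted). The shares of all genes were 0.994% and 4.71%. The smallest p at 7 months was that of Tsc1, which restrains mTORC1, at -0.29 ± 0.09 (limma, adjusted p = 0.0868). It passed in 2 of 23 settings, without dim genes (0.0487) and without DKO at 7 months replicate 2, where it was -0.38 (0.00995). With time in DKO 1 of 17 passed (4 unadjusted), where 7.57% of all genes passed. It was Rragb, a Rag GTPase, which fell by 0.62 ± 0.17 (adjusted p = 0.0388). Rragb lost the call without any of 8 single arrays, and its difference was -0.46 without DKO at 5 weeks replicate 2.

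Pyruvate dehydrogenase is built like the branched-chain complex and has kinases and phosphatases related to Bckdk and Ppm1k. Of 8 measured genes of that list (9 named), 1 passed between genotypes at 7 months and 0 at 5 weeks (2 and 3 unadjusted). The shares of all genes were 4.71% and 0.994%. With time 4 of 8 passed in DKO, 3 of them higher, and 1 of 8 in WT (6 and 3 unadjusted). There 7.57% and 2.37% of all genes passed. For the interaction 1 of 8 passed (4 unadjusted), against 0.0903% of all genes. Pdk4, a kinase that inactivates pyruvate dehydrogenase, ran from 6.74 to 6.99 in WT and 6.59 to 6.77 in DKO at 5 weeks. At 7 months it ran from 4.94 to 5.58 in WT and 3.65 to 3.89 in DKO, the latter near or under the array medians, so these folds are not exact either.

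Pdk4 fell by 1.46 ± 0.12 in DKO against WT at 7 months (limma, adjusted p = 5e-06), by 1.63 ± 0.12 with time in WT (7.37e-06) and by 2.90 ± 0.15 with time in DKO (1.23e-07), each past the threshold in 23 of 23 settings. The interaction was -1.27 ± 0.19 (adjusted p = 0.0177), lost without WT at 5 weeks replicate 3 (0.0536) or DKO at 5 weeks replicate 1 (0.132), and with the replicate block (-1.21, adjusted p = 0.0656). Pdk1 and Pdk3, related kinases, rose with time in DKO by 0.99 ± 0.14 and 0.60 ± 0.10 (adjusted p = 0.000654 and 0.00305), and the call of Pdk3 was lost when only the DKO arrays were fitted (0.0578). The phosphatase Pdp1 rose by 0.41 ± 0.11 (0.0431), a call lost without 10 of the 14 arrays singly, DKO at 5 weeks replicate 1 giving the highest adjusted p (0.401). Bckdk itself differed by 0.26 ± 0.12 in that comparison and did not pass (adjusted p = 0.199).

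**Figure D4:**
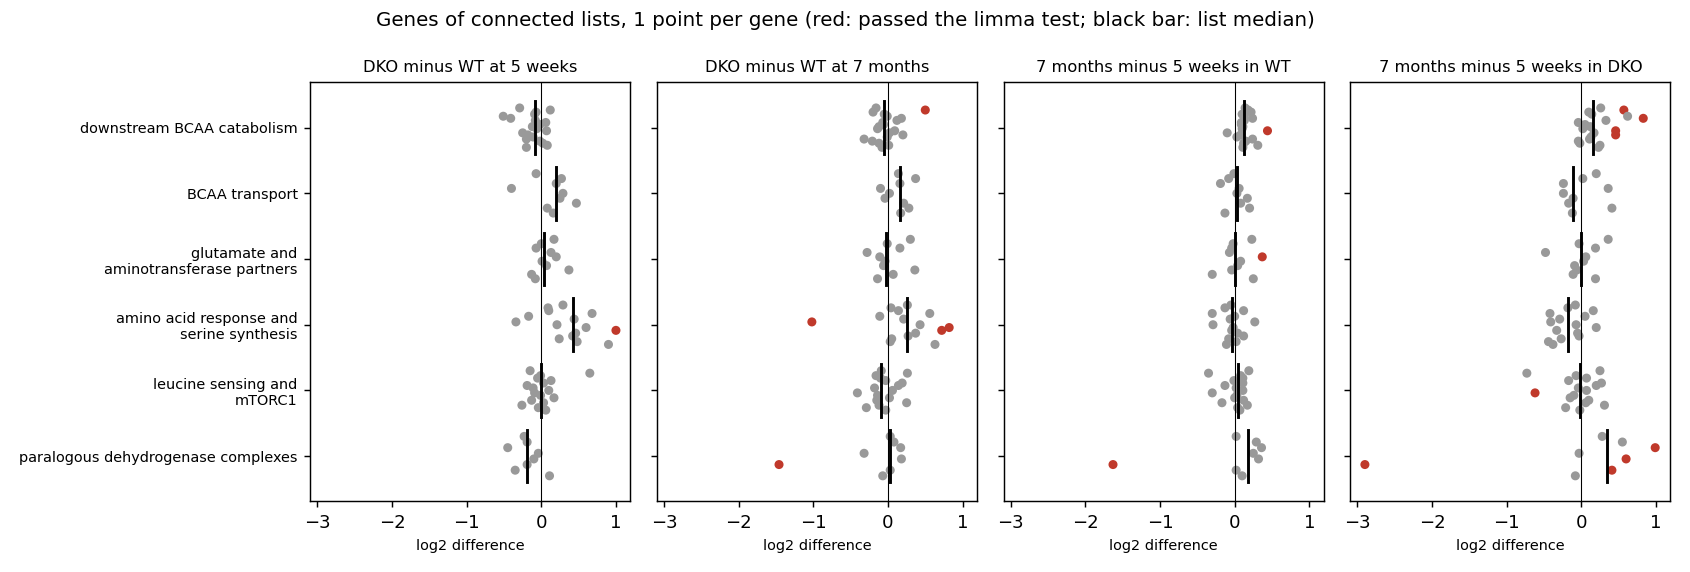
Log2 differences of the genes of the connected lists (y axis) in the comparisons other than the interaction (panels), 1 point per gene, with the list median as a bar and passed genes in red. Pdk4 is the lowest point of its list at 7 months (-1.46), and the median of the amino acid response and serine synthesis list is 0.42 at 5 weeks and 0.26 at 7 months.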

How the data were processed

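RNA of islets from 14 mice was measured on an Affymetrix whole-transcript array. The deposited log2 signals were computed by the authors with RMA, per the submitters' processing notes; RMA corrects background, normalizes across arrays and summarises the probes of a set. Its version was not stated there. They were used without further normalization. Of 35556 probe sets, 21218 carried exactly 1 gene symbol, 1881 several and 12457 none, and only the first were used. Entrez identifiers gave the symbols of 18790 genes; the platform annotation gave those of 30. For 1386 genes the brightest of several probe sets was taken, which touched no member. A further probe set that carries Mccc1 with another symbol was not used.

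With limma 3.58.1 (lmFit, eBayes) in R 4.3.3, group means were modelled over all 14 arrays for 18820 genes. Each of the 5 comparisons had its p-values adjusted by Benjamini-Hochberg and judged at 0.05, with no minimum fold. They measure the spread between these samples. Errors are SE for differences and SD for means. Python 3.11.15 and matplotlib 3.10.9 drew the figures. The number of arrays limits the precision, above all the 2 of DKO at 5 weeks.

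The members, lists and tests were chosen with earlier results of these data known. The text names the 10 members, Tlr2 and Tlr4, up to 4 genes of smallest p per list and genotype comparison, and the 5 genes closest to Bcat1. List genes that passed only with time were named after their values were seen. Alternatives were other priors, filters, normalizations, covariates, fits of only the arrays compared and leaving out each array. The stellate cell and macrophage covariates were chosen after seeing the data.

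Same-numbered samples did not deviate together (correlations -0.163 to 0.158), so numbers were not taken as pairs. The description labels carry letters that follow the groups, and whatever these mark cannot be told apart from the group. On simulated data with 50 changed genes at each fold among 18820 genes, 1.5-fold changes were recovered at 48% for genotype at 5 weeks and 70% at 7 months, 64% for time in WT, 54% for time in DKO and 18% for the interaction. At 2-fold these were 86%, 94%, 92%, 82% and 64%. The simulated noise was independent between genes and had the same spread in all groups. In the data the spread differed between groups, so recovery there can differ.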

Additional observations from a re-analysis of the deposited data

Results flagged for a closer look

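Among 30 sets of 4 arrays (10 members in the 3 groups of 4), the lowest or highest array stood apart in 2 by Dixon's criterion, whose critical value is 0.829 for 4 samples; chance gives about 1 in 20 such sets. Bcat1 in WT at 5 weeks replicate 4 read 2.33 against 3.02 to 3.08 in the other 3 arrays, a gap of 0.913 of the group's range. Without it, the Bcat1 difference between genotypes at 5 weeks was 0.29. Bckdhb in DKO at 7 months replicate 2 read 6.32 against 6.84 to 6.90, a gap of 0.912 of the range. Without it, Bckdhb was 0.43 higher in DKO than in WT at 7 months (limma, adjusted p = 0.0123). The same array had the lowest Bcat1 value of its group, 4.59.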

How the results depend on the processing

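The count of genes past the threshold at 5 weeks (187) was 120 with only the arrays compared, 282 with a trended prior, 121 with the replicate block and 100 with the acinar score. At 7 months (887) it was 488 when only its own arrays were fitted and 583 under the acinar score, and for time in WT (446) 278 with the acinar score. For time in DKO (1424) it was 347 with only the arrays compared, 864 with the replicate block and 914 with the acinar score. For the interaction (17) it was 46 with a trended prior, 35 without dim genes and 10 with the replicate block. Replicate numbers did not pair the samples, and with the block Bckdhb in WT with time had an adjusted p of 0.0564, so 0 of 9 passed there; 0 also passed with repeated quantile normalization and with the acinar score. At 7 months 1 of 9 members passed (Bckdk) with a trended prior, without dim genes or with centred arrays. Centring also moved the higher and lower calls from 460 and 427 to 674 and 294 at 7 months, from 915 and 509 to 1283 and 402 for time in DKO, and from 5 and 12 to 14 and 10 for the interaction (9 and 12 with quantile normalization).

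Leaving out each array gave 44 to 236 genes at 5 weeks, 528 to 1681 at 7 months, 221 to 527 for time in WT, 378 to 2051 for time in DKO and 2 to 185 for the interaction. The 44, 378 and 2 came without DKO at 5 weeks replicate 1, and the 1681 and 185 without DKO at 7 months replicate 2. Counts also moved over 1.5 times at 5 weeks without WT at 5 weeks replicates 1 or 2 (120 and 104), at 7 months without WT at 7 months replicates 1 or 2 (528 each) or DKO at 7 months replicate 3 (531), and for time in DKO without the last (938). For time in WT they moved without WT at 5 weeks replicates 1 or 2 (276 and 244) or WT at 7 months replicates 1, 3 or 4 (221, 256 and 262). For the interaction they moved without WT at 5 weeks replicate 3 (8), DKO at 5 weeks replicate 2 (36), WT at 7 months replicate 2 (10) or DKO at 7 months replicate 1 (27). Members passed in 0 to 2 of 9 at 7 months, 0 to 1 for time in WT and 1 to 2 for time in DKO.

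Signs turned only for differences that had not passed. The acinar score gave 0.01 for Mccc1 at 5 weeks and 0.01 for Ivd with time in DKO, where centring gave 0.01 and the block 0.06; the interaction of Ivd was 0.02 and 0.06 under the latter settings. At 7 months, the stellate cell covariate gave 0.38 for Dbt, 0.86 for Ivd and 0.52 for Mccc1, and the macrophage covariate 0.13, 0.14 and 0.06. Neither covariate overlapped between the genotypes there, so these fits cannot tell it apart from genotype. Over left-out arrays, 5-week differences ran from -0.89 to 0.27 for Ivd, -0.20 to 0.14 for Mccc1, -0.05 to 0.79 for Gpt2, -0.21 to 0.05 for Ogdh and -0.40 to 0.02 for Rheb, and that of Ppm1k at 7 months from -0.12 to 0.22. Time differences in DKO ran from -0.20 to 0.47 for Bcat2, -0.62 to 0.54 for Ivd and -0.10 to 0.23 for Mccc1. Interactions ran from -0.43 to 0.24 for Bcat2, -0.05 to 0.27 for Bckdk, -0.29 to 0.04 for Ppm1k, -0.62 to 0.54 for Ivd and -0.28 to 0.05 for Mccc1. The causes were not tested. Bcat1 at 7 months stayed between 2.08 and 2.62 over left-out arrays; it has no value without dim genes, being one. Background correction was not varied, and leaving out a 5-week DKO array assumes that the one remaining varies as other groups do.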
